A study of Mus musculus with 2 samples.

Results

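The genes described here are 8 members of the BCL2 family, Bcl2, Bcl2l1, Mcl1, Bcl2a1a, Bcl2a1b, Bcl2a1d, Bcl2l11 and Bax, taken by symbol from the 26124 genes of 2 spleen single-cell RNA-sequencing libraries. Each of the 8 symbols occurred once and each identifier matched the mouse annotation (GENCODE, GRCm38). Their levels were compared across cell types and neutrophil stages, and between a control mouse called wild-type and a mouse with sickle cell disease (SCD), to ask in which spleen cells the balance of survival and death genes differed under chronic hemolysis.

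Both mice were homozygous for Hbatm1Paz, a null allele of the mouse alpha globin locus, and both carried the human sickle globin transgene Tg(HBA-HBBs)41Paz. The wild-type mouse was heterozygous for Hbbtm1Tow, a targeted allele of the mouse beta globin locus, hemizygous for the transgene, and does not sickle. The SCD mouse was homozygous for Hbbtm1Tow and for the transgene, and sickles. So the control is not free of the alpha globin deletion or of sickle hemoglobin. Mice were 12 to 16 weeks old and no treatment is given. The spleen cells had been lysed of red cells and negatively enriched for dendritic cells (DCs) with magnetic beads, so shares of cell types are shares after enrichment. Each group was 1 mouse and 1 library, so no difference has a replicate check, and every interval covers counting error only.

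The libraries held 10845 and 13447 cells, of which 9423 wild-type and 10635 SCD cells were kept, at a median of 4884 and 8282 UMIs (unique molecular identifiers, each counting 1 captured transcript). Levels are CPM, the UMIs of a gene per 1000000 UMIs of the cells summed. As a check of the genotypes, the mouse beta globin gene Hbb-bs stood at 2293 CPM in wild-type cells and at 20.8 CPM in SCD cells. The mouse alpha globin gene Hba-a1 stood at 915 and 792 CPM, although both genotypes are given as homozygous for the alpha globin null allele; the origin of these UMIs was not tested. The libraries shared 88 cell barcodes, and the Mcl1 ratio in neutrophils was 0.192 with these cells and 0.193 without them. Cells were grouped into 33 clusters, with the 8 genes left out of the clustering, and named from marker genes. Each name means cells that resemble that type by its markers, and the suffix "-like" is dropped from here on. Neutrophils numbered 4361 and 7184 cells in the wild-type and SCD libraries, monocytes 991 and 1386, conventional DCs 2742 and 776, plasmacytoid DCs (pDCs) 751 and 531, red pulp macrophages 292 and 155, B cells 20 and 268, and erythroid cells 94 and 147. Different clusters held most of some classes in the libraries. Wild-type monocytes lay mainly in clusters led by Tppp3 and Ace and SCD monocytes in clusters led by Vcan and Itga1. Conventional DCs lay mainly in clusters led by Mmp12 and H2-M2 in the wild-type library and by Xcr1, Ppp1r14a and Cd209a in the SCD library. For pDCs the clusters were led by Iglc3 and Siglech, respectively. Several of these held almost no cells of the other library, and the libraries were not aligned before clustering. The Tppp3-led cluster held 500 wild-type and 0 SCD cells, the Vcan-led 11 and 774, the Iglc3-led 645 and 2 and the Siglech-led 7 and 464. Ratios in classical monocytes and pDCs therefore compare largely separate clusters.

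BCL2 family proteins decide whether the outer mitochondrial membrane stays sealed. The anti-apoptotic members BCL2, BCL-XL (Bcl2l1), MCL1 and A1 (the Bcl2a1 copies) hold the effectors BAX and BAK in check, BH3-only proteins such as BIM (Bcl2l11) bind and neutralize them, and free BAX permeabilizes the membrane so that cytochrome c is released and caspases are activated. MCL1 is a very short-lived protein on which neutrophils depend, A1 is an NF-kB target of myeloid and lymphoid cells, BCL2 is the main survival protein of resting lymphocytes and is needed by non-classical monocytes, BCL-XL protects maturing erythroid cells, and BIM sets the lifespan of neutrophils and DCs.

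The A1 genes are a recent mouse gene cluster on chromosome 9, and their near identity bears on every value given for them. Their longest transcripts were 98.2% (Bcl2a1a and Bcl2a1b), 98.8% (Bcl2a1a and Bcl2a1d) and 99.1% (Bcl2a1b and Bcl2a1d) identical. Of the stretches of 91 bases, the length of the sequenced cDNA read, 46.6% in Bcl2a1a, 35.6% in Bcl2a1b and 61.1% in Bcl2a1d occurred unchanged in another copy, where a read could not be assigned to 1 gene. Values of a single copy are therefore uncertain, and the sum over the 3 copies is given beside them. The copies also share their proximal promoter, shown here because the levels of the 3 genes ran alike over cell types (Pearson's r of 0.95, 0.89 and 0.80 for the pairs a and b, b and d, and a and d over 18 combinations of class or stage and library). The stretches are from RefSeq promoter windows (250 bases before to 50 after the start, GRCm38.p6), with matches to an AP-1 motif (TGANTCA) and a PU.1 motif (GAGGAAGT) in capitals, both searched on either strand.
Bcl2a1a (chr9:88956761-88956880, + strand): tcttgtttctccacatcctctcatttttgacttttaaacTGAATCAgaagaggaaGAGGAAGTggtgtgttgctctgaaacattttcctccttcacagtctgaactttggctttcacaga
Bcl2a1b (chr9:89199070-89199189, + strand): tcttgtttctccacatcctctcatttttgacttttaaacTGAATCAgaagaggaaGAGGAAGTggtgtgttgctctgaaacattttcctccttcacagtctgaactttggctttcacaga
Bcl2a1d (chr9:88731884-88732003, - strand): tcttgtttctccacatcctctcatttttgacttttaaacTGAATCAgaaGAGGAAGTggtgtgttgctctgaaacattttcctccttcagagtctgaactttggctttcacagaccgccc
Bcl2a1c (chr9:114329885-114330004, + strand): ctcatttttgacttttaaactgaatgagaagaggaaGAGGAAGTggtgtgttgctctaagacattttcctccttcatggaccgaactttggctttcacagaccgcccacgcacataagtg

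The stretches of Bcl2a1a and Bcl2a1b were identical over all 120 bases, and that of Bcl2a1d matched them at 113 of 114 aligned bases. Gaps are not counted there, and Bcl2a1d lacks bases between the AP-1 and PU.1 matches. These stood 114 and 104 bases from the RefSeq start in Bcl2a1d, against 120 and 104 in Bcl2a1a. Bcl2a1c, a further copy outside the 8 genes, matched at 94 of 101 aligned bases and held the PU.1 match without the AP-1 match. Over all 32851 promoter windows of 300 bases, the length searched and longer than the stretches shown, 7.81% held the AP-1 motif and 3.2% the PU.1 motif. None of the windows of Bcl2, Bcl2l1, Mcl1, Bcl2l11 and Bax held either one. The motifs TGACGTCA (CRE) and TTGCNNAA (C/EBP) were in no window of these genes, and a loose NF-kB motif was in that of Bcl2a1b among the 3 copies, against 50.8% of all windows. The motif matches do not overlap each other, and a match is a description of letters, not of binding.

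**Figure D1:**
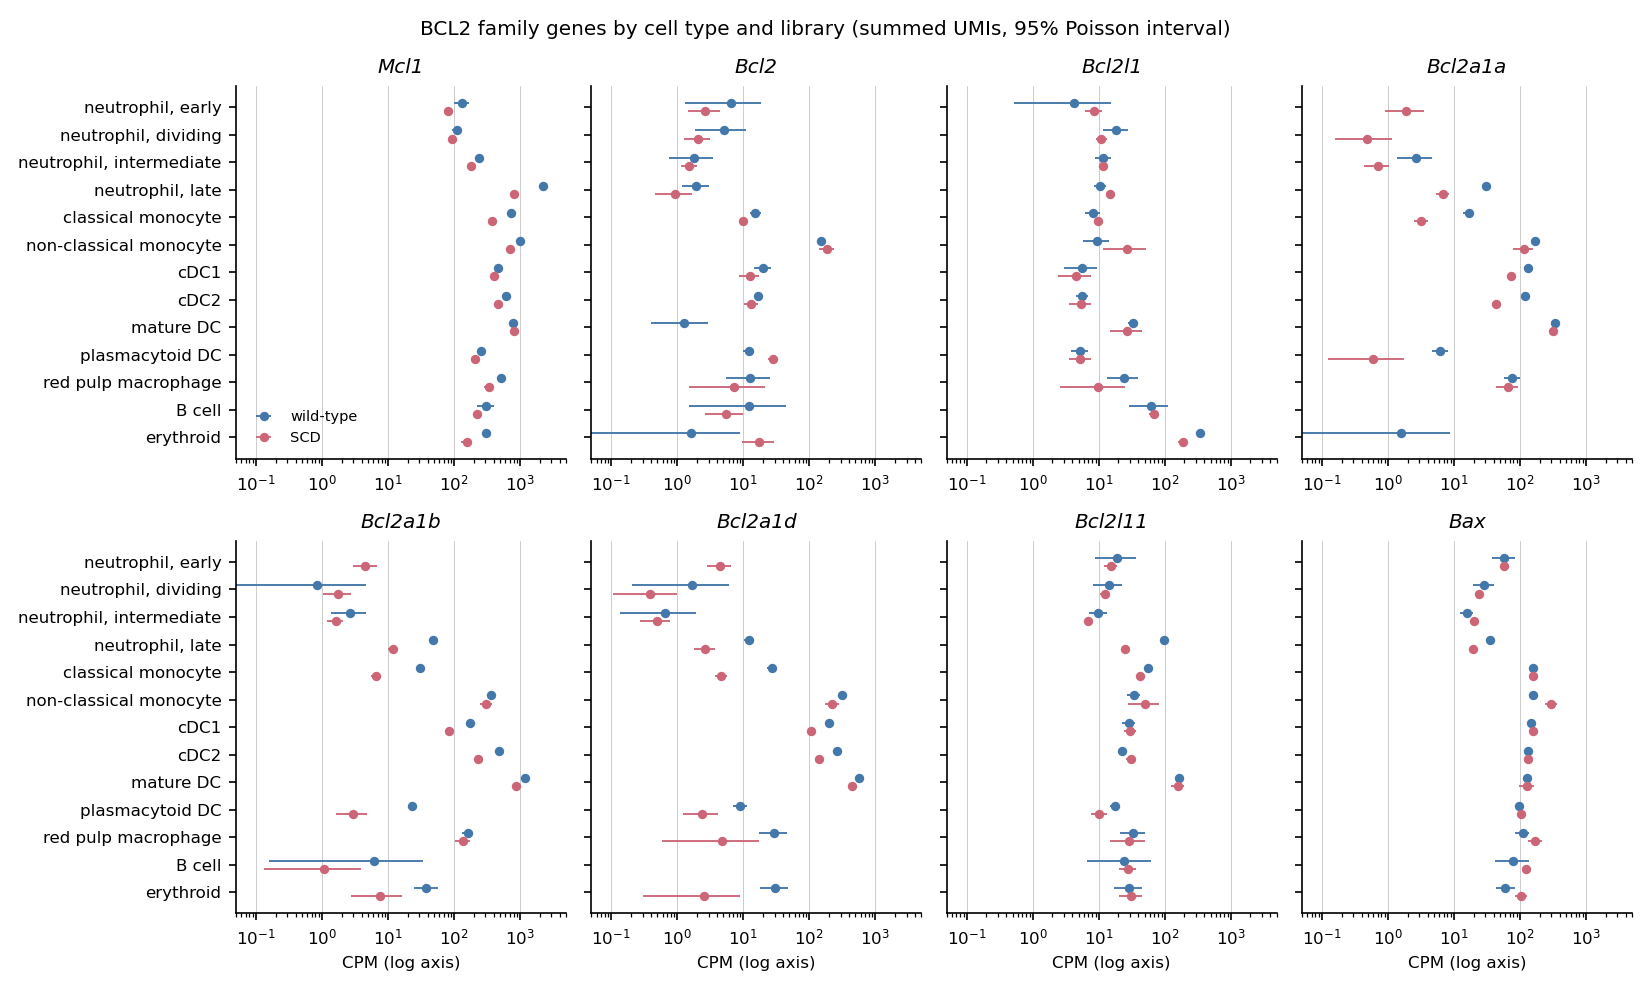
Level of each gene (CPM on a log axis, summed UMIs) in each cell type, sub-type or neutrophil stage, in the wild-type (blue) and SCD (red) library, with exact 95% Poisson intervals; points at 0 UMIs are left out. Mcl1 was highest in late wild-type neutrophils (2249 CPM), the Bcl2a1 copies in mature DCs, Bcl2 in non-classical monocytes and Bcl2l1 in erythroid cells.

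Mcl1 was far lower in SCD than in wild-type neutrophils, and in both libraries its level was highest in the latest stage. Wild-type neutrophils as a whole stood at 1458 CPM (1440 to 1477) and SCD neutrophils at 280.6 CPM (276 to 285). The ratio, here and below SCD over wild-type, was 0.192 (0.189 to 0.196). Paired levels are given with the wild-type value first. The stages were unlike in number. Of the SCD neutrophils, 42.3% were late (scored on a list with Il1b, Cxcr2 and Csf3r, though the cluster with most SCD late cells was led by Retnlg) and 47.5% intermediate (specific granule genes such as Camp and Ltf), against 88.5% and 9.95% of the wild-type neutrophils. Along these stages Mcl1 was at 131 CPM in early, 113 in dividing, 242 in intermediate and 2249 in late wild-type cells, and at 82.4, 92.7, 184 and 801 CPM in the same stages of the SCD library. So late cells were the highest stage in both libraries, and only 18 early and 50 dividing wild-type cells stood behind the first values.

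Within a stage the difference was smaller than over all neutrophils, and it was past 2-fold in the late stage alone. The ratio was 0.631 (0.482 to 0.839) in early, 0.822 (0.685 to 0.992) in dividing, 0.760 (0.712 to 0.811) in intermediate and 0.356 (0.348 to 0.365) in late neutrophils. The late stage was itself a mixture that differed between the libraries. A cluster led by Il1b held 3689 of the 3859 late wild-type cells and 852 of the 3041 late SCD cells, and one led by Retnlg held 170 and 2189. In the Il1b-led cluster Mcl1 was at 2405 and 1584 CPM, a ratio of 0.659 (0.633 to 0.685). In the Retnlg-led cluster it was at 648 and 661 CPM, a ratio of 1.02 (0.937 to 1.11). So the ratio over the late stage was farther from 1 than in either of its clusters.

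Neutrophils were also split without clusters, into 5 bins of equal cell number over both libraries by the share of the late list among UMIs of the early, intermediate and late lists. From the lowest to the highest bin Mcl1 was at 133, 299.5, 1295, 2352 and 2482 CPM in the wild-type library and at 113, 209.5, 612.5, 1355 and 1625 CPM in the SCD library. It was lower in the SCD library in 5 of 5 bins, with the smallest ratio in the middle bin (0.473) and the others between 0.576 and 0.848. The middle bin was wide, with late-list shares of 15.4 to 72.8%, and held 397 wild-type and 1912 SCD cells. Maturity could thus still differ between the libraries within a bin. With the SCD levels weighted to the wild-type makeup, the ratio over all neutrophils was 0.379 by stages, 0.614 by bins and 0.674 by clusters, in place of 0.192. Thinned to 1000 UMIs per cell, 86.2% (85.0 to 87.2) of the late wild-type and 56.0% (54.2 to 57.8) of the late SCD neutrophils had a Mcl1 UMI, with 45 and 7 shallower cells left out. Unthinned, these shares were 97.6% and 91.1% at median depths of 2351 and 3709 UMIs, and erythroid cells, with Mcl1 at 309 and 157 CPM, stood at 19.1% and 14.2% when thinned, at 6350 and 2171 UMIs. No class here lacked Mcl1, so these shares are no measure of background.

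**Figure D2:**
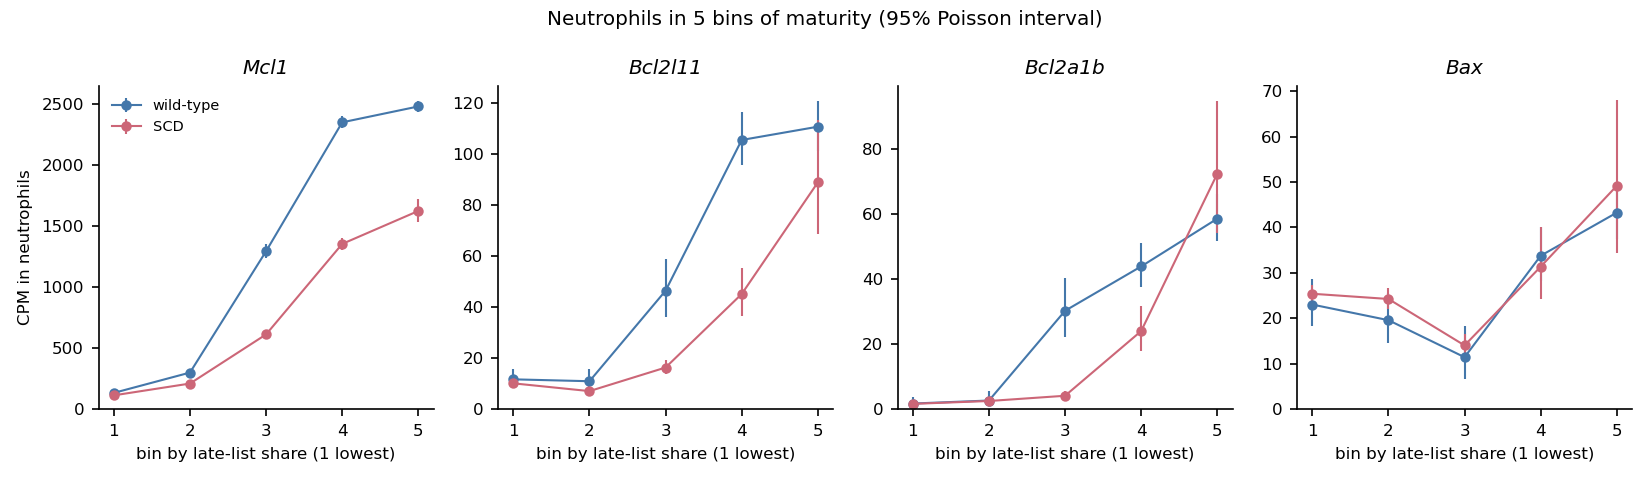
Levels of Mcl1, Bcl2l11, Bcl2a1b and Bax (CPM) in neutrophils in 5 bins of equal cell number by the share of late-list UMIs, in the wild-type (blue) and SCD (red) library, with exact 95% Poisson intervals. Mcl1 was lower in the SCD library in 5 of 5 bins, while the intervals of Bax overlapped in each.

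Outside neutrophils, the Mcl1 ratio lay below 1 in each class, and among whole classes it was past 2-fold in monocytes alone. Monocytes were at 794 and 387 CPM, a ratio of 0.487 (0.472 to 0.503). Neither sub-type was past 2-fold, at 0.520 in classical and 0.722 in non-classical monocytes, and the monocyte ratio was 0.579 at the wild-type and 0.524 at the SCD makeup of sub-types. Single clusters were past 2-fold, among them the Ighg3-led classical monocytes at 948 and 369.5 CPM (0.390, 0.357 to 0.426), the Dnase1l3-led DCs at 947 and 414 CPM (0.437, 0.397 to 0.4805) and the Atp1b1-led pDCs at 591.5 and 288 CPM (0.4875, 0.417 to 0.569). Their marker scores were low, at 0.414, 0.468 and 0.543, and the part of other cell types in them was not tested. The Xcr1-, H2-M2-, Cd209a- and C1qa-led clusters scored 0.974, 0.822, 0.685 and 1. Their Mcl1 ratios were not past 2-fold, at 0.872, 0.840, 0.779 and 0.819. Conventional DCs were at 627 and 464.5 CPM (0.741), pDCs at 257.5 and 209 CPM (0.810), red pulp macrophages at 524 and 336 CPM (0.641), B cells at 307 and 225 CPM (0.733, 0.546 to 1.005) and erythroid cells at 309 and 157 CPM (0.507, 0.402 to 0.638). The order of the classes also differed. From high to low it ran neutrophils, monocytes, conventional DCs, red pulp macrophages, erythroid cells, B cells and pDCs in the wild-type library, where the intervals of the last 3 overlapped from one to the next. In the SCD library conventional DCs came first, followed by monocytes, red pulp macrophages and neutrophils (intervals overlapping from one to the next among these 3), then B cells and pDCs (overlapping) and erythroid cells. In mature DCs, which express Ccr7, the intervals of Mcl1 overlapped, at 795 CPM (767.5 to 823) and 814.5 CPM (738 to 896).

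**Figure D3:**
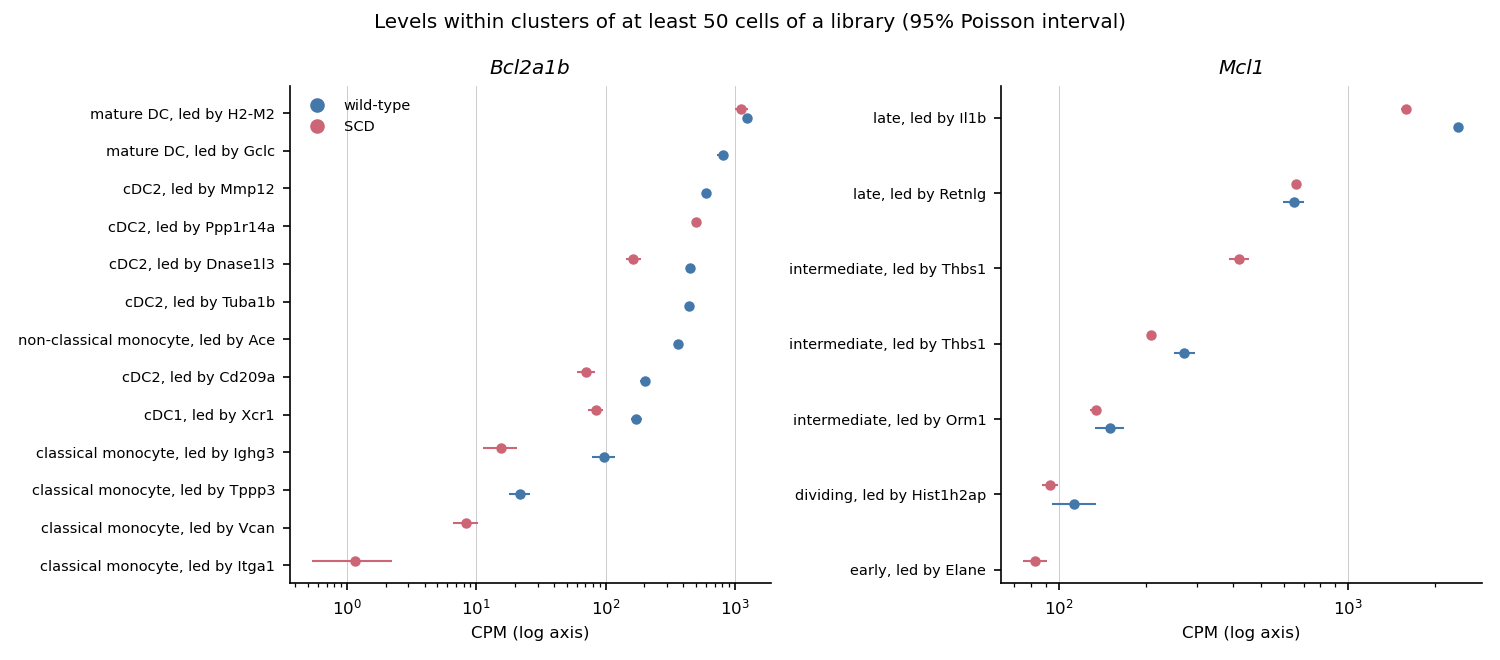
Bcl2a1b in conventional DC and monocyte clusters and Mcl1 in neutrophil clusters (CPM on a log axis), for each library (wild-type blue, SCD red) with at least 50 cells in the cluster, with exact 95% Poisson intervals. Clusters led by Mmp12, Tppp3 and Ace are among those that show wild-type cells alone, and those led by Vcan, Itga1 and Ppp1r14a among those that show SCD cells alone; 2 intermediate clusters are led by Thbs1.

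Summed over the 3 copies, Bcl2a1 was highest in mature DCs, cDC2 and non-classical monocytes in both libraries, and in conventional DCs the copies were the members past 2-fold. Bcl2a1a alone was higher in cDC1 (133 and 73.8 CPM) than in cDC2 (118 and 43.6 CPM), and in the SCD library also higher in red pulp macrophages (65.3 CPM) than in cDC2, with overlapping intervals for wild-type cDC1 and cDC2 and for the SCD macrophages and cDC2. Red pulp macrophages were at 269 and 206 CPM over the 3 copies, with Bcl2a1b at 163 and 135.5 CPM beside 173 and 83.9 CPM in cDC1, while pDCs were at 38.2 and 5.91 CPM. Over the 3 copies together, mature DCs stood at 2085 CPM (2041 to 2130) and 1619 CPM (1511 to 1733), with a ratio of 0.777 (0.722 to 0.834). cDC2, the DCs that chiefly prime CD4 T cells, were at 873 and 418 CPM (0.479, 0.457 to 0.501). The cDC2 here include a cluster led by Dnase1l3, with 199 and 80 cells, whose 10 leading genes hold the cDC1 marker Xcr1 and the mature DC markers Tbc1d4 and Apol7c but no cDC2 marker. Without it, an alternative added after seeing the data, cDC2 were at 883 and 457 CPM (0.518, 0.4925 to 0.544), short of 2-fold. cDC1, the cross-presenting DCs, were at 504 and 264 CPM (0.524, 0.479 to 0.574). In both libraries the order was therefore mature DCs, cDC2 and cDC1, with intervals apart. Over all conventional DCs the sum was 1036.5 CPM (1023.7 to 1049.5) against 438 CPM (424.5 to 453), a ratio of 0.423 (0.409 to 0.438).

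Copy by copy, Bcl2a1b was at 572 and 222 CPM in conventional DCs (0.388, 0.370 to 0.407), Bcl2a1d at 308 and 146 CPM (0.475, 0.447 to 0.505) and Bcl2a1a at 157 and 70.3 CPM (0.447, 0.410 to 0.488). Over 9 other filters, clusterings and scalings the Bcl2a1d ratio was 0.470 to 0.518, on either side of 2-fold. The sub-type makeup differed, with mature DCs 634 of 2742 wild-type and 87 of 776 SCD conventional DCs. At the wild-type makeup the ratios were 0.566 for Bcl2a1b, 0.604 for Bcl2a1d and 0.590 for Bcl2a1a, under 2-fold in each case. Within clusters present in both libraries the difference varied. In the cDC2 cluster led by Cd209a, Bcl2a1b was at 201 and 71.0 CPM (0.354, 0.295 to 0.423) and in the Dnase1l3-led cluster at 448 and 164 CPM (0.366, 0.314 to 0.424). In the mature DC cluster led by H2-M2, with 554 and 50 cells, it was at 1243 and 1121 CPM (0.902, 0.800 to 1.01). The largest cDC2 cluster of each library held few cells of the other, and these stood at 599 CPM (Mmp12-led, 1319 wild-type cells) and 498 CPM (Ppp1r14a-led, 191 SCD cells). In the cDC1 cluster led by Xcr1, with 162 and 199 cells, it was at 173 and 83.9 CPM (0.484, 0.411 to 0.567). Bcl2a1b was thus past 2-fold in the Cd209a-, Dnase1l3- and Xcr1-led clusters and not in the H2-M2-led one. Thinned to 1000 UMIs, 35.1% (33.0 to 37.3) of wild-type and 23.0% (19.3 to 27.0) of SCD cDC2 had a Bcl2a1b UMI at unthinned medians of 8287 and 9803 UMIs, against 1 of 89 wild-type and 0 of 127 SCD erythroid cells. That 0 limits only the share with a UMI after thinning, to 2.86%, and unthinned 10 of 94 and 5 of 147 erythroid cells had a Bcl2a1b UMI.

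In monocytes the Bcl2a1 copies were far lower in the SCD library, and the makeup of monocytes differed between the libraries. Bcl2a1b was at 107 and 11.0 CPM (0.103, 0.0886 to 0.119), Bcl2a1a at 51.8 and 4.84 CPM (0.0933) and Bcl2a1d at 94.8 and 7.72 CPM (0.0815). Non-classical monocytes, the patrolling Ace- and Treml4-expressing kind, were 356 of 991 wild-type but 49 of 1386 SCD monocytes. They held 1867 of the 2402 wild-type UMIs of the 3 copies in monocytes and 192 of the 483 SCD UMIs. In these cells the sum of the copies was 843 CPM (805.5 to 882.5) and 643 CPM (555 to 741), a ratio of 0.762 (0.654 to 0.885). In classical monocytes it was 73.9 and 14.4 CPM, a ratio of 0.195 (0.169 to 0.226). Erythroid cells, not known for A1, were at 70.0 and 10.0 CPM, with nearly all of these UMIs in the 55 wild-type and 51 SCD cells of a single cluster, while dividing neutrophils were at 2.53 and 2.64 CPM and pDCs at 38.2 and 5.91 CPM. The part of free RNA in the classical levels was not tested. In the classical cluster led by Ighg3, with 78 and 142 cells, Bcl2a1b was at 97.0 and 15.5 CPM (0.160, 0.110 to 0.230) and Bcl2a1d at 83.3 and 8.82 CPM (0.106, 0.0650 to 0.167). At the wild-type makeup of sub-types the monocyte ratios were 0.719 for Bcl2a1b, 0.562 for Bcl2a1a and 0.583 for Bcl2a1d. At the SCD makeup they were 0.315, 0.256 and 0.248, past 2-fold in each case.

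Neutrophils held little A1 transcript before the late stage. Bcl2a1b was at 2.65 and 1.61 CPM in intermediate and 48.5 and 11.8 CPM in late neutrophils, under the minimum of 50 CPM used for a call. The late wild-type level lay within the interval of wild-type erythroid cells (24.5 to 56.8 CPM). In the Il1b-led cluster it was at 53.1 CPM (48.4 to 58.1) and 61.8 CPM (50.8 to 74.4), a ratio of 1.16 (0.937 to 1.43), while in the Retnlg-led cluster it rested on 1 and 28 UMIs. Red pulp macrophages were at 163 and 135.5 CPM (0.831, 0.589 to 1.16) and pDCs at 23.0 and 2.96 CPM.

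**Figure D4:**
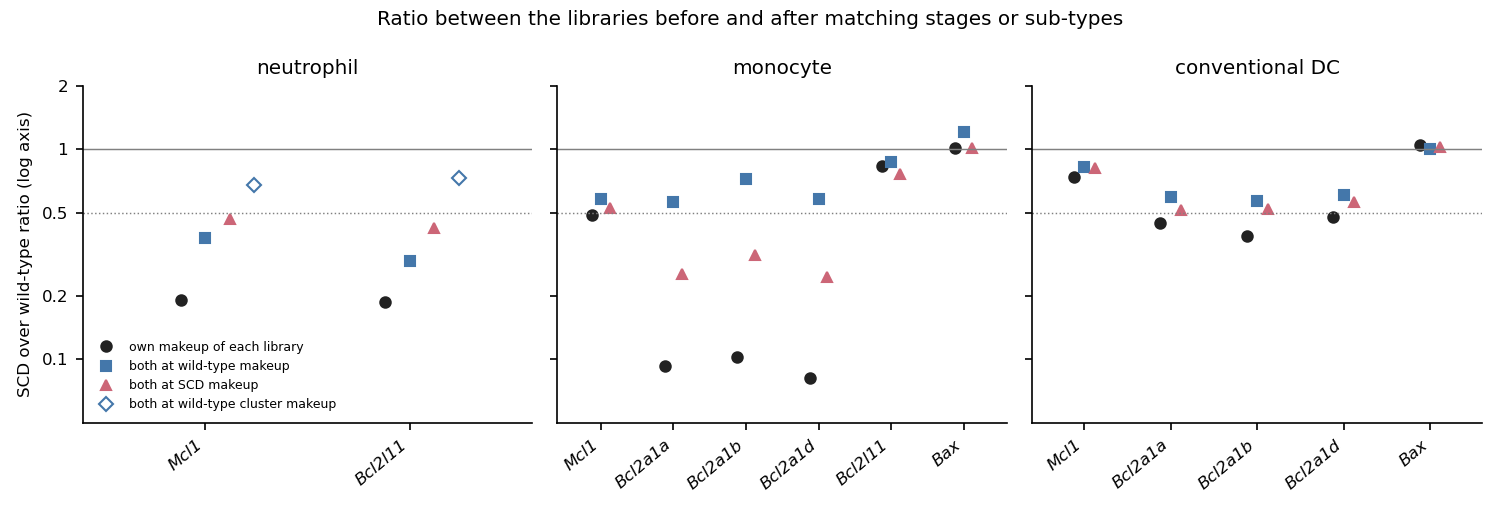
SCD over wild-type ratio (log axis) of the members that reached 50 CPM and 20 UMIs in neutrophils, monocytes and conventional DCs, with the libraries as they are (black), with both at the wild-type (blue squares) or SCD (red triangles) makeup of stages or sub-types, and for neutrophils at the wild-type cluster makeup (open diamonds). The dotted line is a ratio of 0.5; the monocyte Bcl2a1 ratios moved from 0.0815 to 0.103 up to 0.562 to 0.719 at the wild-type makeup.

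Bcl2 itself was a gene of non-classical monocytes and of small clusters without a class name. Non-classical monocytes stood at 151 CPM (136 to 168) and 184 CPM (139 to 240), with a ratio of 1.22 (0.898 to 1.62) with 335 and 55 UMIs. Classical monocytes were at 15.3 and 10.1 CPM. Monocytes as a whole were at 47.2 and 12.6 CPM (0.267, 0.228 to 0.312), and this ratio was 1.08 at the wild-type and 0.728 at the SCD makeup of sub-types. In classical monocytes it was 0.657 (0.519 to 0.835). Thinned to 1000 UMIs, 12.2% (8.96 to 16.1) of the wild-type and 18.4% (8.76 to 32.0) of the SCD non-classical monocytes had a Bcl2 UMI, at medians of 5716 and 5509 UMIs, against 0.0927% and 0.181% of the neutrophils at 2453 and 6953.

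A cluster left without a name was led by Bcl2 and Ly6d and held 62 wild-type and 125 SCD cells. It was singled out for its Bcl2, so its level is a description. There Bcl2 was at 64.5 CPM (47.7 to 85.2) and 283 CPM (258 to 309), a ratio of 4.39 (3.27 to 6.01). The summed markers of pDCs were at 6848 and 8650 CPM in this cluster, against 19092 and 16889 CPM in pDCs, and its score was too close to that of conventional DCs for a name. Mcl1 went the other way there, at 532 and 200.1 CPM (0.376, 0.325 to 0.436). In pDCs Bcl2 was at 12.1 CPM (9.92 to 14.7) and 28.4 CPM (23.9 to 33.4), under the 50 CPM minimum, and the ratio was 2.34 (1.80 to 3.04). Under 4 of 7 other filters and clusterings, where cells of the Bcl2-led cluster counted as pDCs, the ratio was 4.47 to 6.05 and past the minimum. A cluster led by immunoglobulin genes, with 107 and 54 cells and no class name, held the highest Bcl2 of any unit, 353 CPM (311 to 399) and 422 CPM (363 to 488). Its summed markers were at 7809 and 7766 CPM for plasma cells, 6734 and 3330 CPM for conventional DCs, 2337 and 544 CPM for T cells and 348 and 1044 CPM for NK cells. B cells, which had leading genes of early B cells (Vpreb1, Igll1), were low in Bcl2, with 2 and 10 UMIs.

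Bcl2l1 was highest in erythroid cells in both libraries. Erythroid cells were at 345.5 CPM (301 to 395) and 188 CPM (159 to 220.5), with a ratio of 0.544 (0.439 to 0.673). This class joined a cluster led by Hbb-bs and a cluster led by Hemgn, and 217 of 217 wild-type and 137 of 150 SCD UMIs of Bcl2l1 lay in the first. Within the Hbb-bs-led cluster, with 55 and 51 cells, the direction was the opposite, with 501 and 744 CPM and a ratio of 1.49 (1.19 to 1.85). Over all genes tested in erythroid cells the median log2 ratio was 0.79, with 36.15% higher and 5.14% lower. Hbb-bs held 139517 wild-type and 2070 SCD UMIs over all kept cells, and globin UMIs count in the total behind each CPM. The part of this in the Bcl2l1 ratios was not tested. B cells were at 61.3 and 69.2 CPM, the former on 10 UMIs, and mature DCs at 33.6 and 27.2 CPM, above the 5.57 and 4.50 CPM of cDC1 and the 5.62 and 5.40 CPM of cDC2. Neutrophils were at 11.3 and 12.1 CPM (1.07, 0.909 to 1.27), and the ratio was 1.53 at the wild-type cluster makeup. Dividing cells were at 18.5 and 11.1 CPM (0.597, 0.376 to 0.991) and late cells at 10.5 and 15.2 CPM (1.44, 1.12 to 1.85). The Il1b-led cluster was at 10.9 and 21.7 CPM (1.99, 1.34 to 2.92). These levels were all under the 50 CPM minimum.

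Bcl2l11, the only BH3-only gene among the 8, was highest in mature DCs in both libraries and, in the wild-type library, next highest in late neutrophils. Neutrophils stood at 64.9 CPM (61.0 to 69.0) and 12.2 CPM (11.4 to 13.1), a ratio of 0.188 (0.171 to 0.207), beside 0.192 for Mcl1. By stage it was at 19.3 and 15.5 CPM in early, 14.3 and 12.4 in dividing, 9.94 and 6.86 in intermediate and 98.7 and 25.6 CPM in late cells, the last below the 42.0 CPM of SCD classical monocytes. In the Il1b-led cluster it was at 107 and 77.4 CPM (0.722, 0.600 to 0.864), and in the Retnlg-led cluster at 12.7 and 16.3 CPM on 11 and 163 UMIs. At the wild-type cluster makeup the neutrophil ratio was 0.732. Mature DCs were at 166 CPM (153.5 to 179) and 157.5 CPM (125 to 196), with overlapping intervals, and classical monocytes at 55.4 and 42.0 CPM (0.758, 0.672 to 0.855). In cDC2 it was at 22.8 and 30.7 CPM (1.34, 1.11 to 1.62), under the 50 CPM minimum. Without the Dnase1l3-led cluster cDC2 were at 18.1 and 31.9 CPM (1.76, 1.41 to 2.185), and that cluster was at 55.4 and 27.2 CPM (0.491, 0.329 to 0.717).

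Bax was at similar levels in the libraries in monocytes, conventional DCs and pDCs. Monocytes were at 159 and 162 CPM (1.02, 0.957 to 1.08), conventional DCs at 135 and 142 CPM (1.05, 0.984 to 1.12) and pDCs at 97.3 and 104 CPM (1.07, 0.960 to 1.20). None of these differed beyond counting error, and the interval that reached farthest ended at 1.20. Neutrophils were the lowest class, at 29.6 and 23.8 CPM, and within them early cells were highest, at 57.8 and 57.6 CPM. The ratio lay above 1 in red pulp macrophages (110 and 169 CPM, 1.53, 1.09 to 2.17; 0.858 from 16 and 3 cells when at least 1000 genes per cell were required), erythroid cells (60.5 and 105 CPM, 1.74, 1.17 to 2.62) and non-classical monocytes (158 and 295 CPM, 1.87, 1.46 to 2.37), the last on 49 SCD cells. None of these ratios was past 2-fold, though 3 intervals reached beyond it. In erythroid cells the log2 ratio of Bax was 0.80, beside a median of 0.79 over all genes tested, of which 36.15% were higher. In their Hbb-bs-led cluster the Bax ratio was 0.784 (0.282 to 1.915) on 21 and 7 UMIs.

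Counted over the 8 genes, a member was called where either library reached 50 CPM with 20 UMIs or more, given a ratio of at least 2 or at most 0.5. In neutrophils 2 members passed that minimum, Mcl1 and Bcl2l11, and both were lower in the SCD library, where 21.1% of all 2488 genes tested were lower and 2.21% higher. In late neutrophils the same 2 were lower, against 13.5% of genes lower and 3.25% higher. In the dividing and intermediate stages Mcl1 alone passed the minimum and was not called, against 0.0458% lower and 0.32% higher, and 0.211% lower and 0.105% higher, of all genes. So the intermediate and dividing stages differed little over all genes too. In monocytes 4 of the 6 members that passed were lower (Mcl1 and the 3 Bcl2a1 copies), against 6.59% lower and 3.24% higher. In conventional DCs 3 of 5 were lower (the Bcl2a1 copies), against 5.17% lower and 2.25% higher. In pDCs neither of the 2 that passed was called (0.406% lower, 1.25% higher of all genes), and in red pulp macrophages none of 4 (6.96% lower, 3.73% higher). No member was higher in any of these. Members at low levels could not be called, and the 3 Bcl2a1 copies share sequence and are not separate observations.

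Among 26 other genes of the BCL2 family and of intrinsic apoptosis, few passed the minimum and few were called. In neutrophils 3 of 7 tested were lower, the BH3-only gene Pmaip1 (NOXA) at 93.7 and 8.92 CPM, the inhibitor of apoptosis Birc3 at 86.9 and 31.9 CPM and the BH3-only gene Bid at 62.0 and 28.5 CPM. The median log2 ratio of the 7 tested was -0.75, beside -0.40 over all genes tested, of which 21.1% were lower. Within neutrophils the counts were 2 of 6 lower in late cells (median -0.56 beside -0.45) and 0 of 3 in dividing and in intermediate cells. They were 0 of 7 in the Il1b-led cluster (0.04 beside -0.01) and 0 of 5 in the Retnlg-led cluster (-0.23 beside -0.04). Over all genes 13.5%, 0.0458%, 0.211%, 0.569% and 0.683% were lower there, in the same order. In conventional DCs 2 of 10 were lower, the inhibitor of apoptosis Birc2 at 252 and 99.9 CPM and Pmaip1 at 201 and 96.7 CPM, and 1 was higher, the effector caspase Casp6 at 25.6 and 54.1 CPM. The median was -0.35 beside -0.12, and over all genes 5.17% were lower and 2.25% higher. In red pulp macrophages 1 of 7 was lower, Xiap, the caspase inhibitor, at 291 and 143 CPM (median -0.29 beside -0.05, with 6.96% of all genes lower). In monocytes 0 of 8 (median -0.14 beside -0.12) and in pDCs 0 of 5 (median -0.28 beside -0.05) were called, where 6.59% and 0.406% of all genes were lower. The few genes called lower included death-promoting and death-inhibiting ones, and these counts are too small to rank against the shares over all genes.

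Other lists were counted in the same way. Of 16 NF-kB target genes, 9 of 14 tested were lower in conventional DCs, led by Tnfaip3 (73.9 and 27.9 CPM), Il1b (205 and 78.8 CPM) and Nfkbiz (104.5 and 40.4 CPM), 5 of 9 in monocytes, led by Il1b (141 and 14.9 CPM), Nfkbiz (89.2 and 23.8 CPM) and Nfkbia (229 and 77.2 CPM), and 3 of 6 in neutrophils, Il1b (2037 and 166 CPM), Nfkbiz (93.1 and 24.4 CPM) and Birc3. In pDCs 1 of 8 was lower (Il1b, 67.6 and 17.5 CPM) and in red pulp macrophages 2 of 8 (Relb, 56.0 and 12.1 CPM, and Il1b, 329 and 77.4 CPM). The list medians were -1.07, -1.19, -1.17, -0.51 and -0.81 on the log2 scale in these 5 classes, beside -0.12, -0.12, -0.40, -0.05 and -0.05 over all genes tested, of which 5.17%, 6.59%, 21.1%, 0.406% and 6.96% were lower. No gene of the list was higher in these classes. In cDC2 2 of 13 were lower (median -0.80 beside -0.14) and in cDC1 1 of 9 (-0.33 beside -0.03). Over all genes 2.76% and 0.470% were lower there. In classical monocytes 4 of 8 were lower (-1.14 beside -0.09) and in late neutrophils 4 of 6 (-1.17 beside -0.45). Over all genes these shares were 3.58% and 13.5%. None were called in dividing and intermediate neutrophils (0 of 2 each) or in the Retnlg-led cluster (0 of 5). Over all genes 0.0458%, 0.211% and 0.683% were lower there. In mature DCs 0 of 13 were called, where 3.23% of all genes were higher and 2.80% lower. In the Il1b-led neutrophil cluster 1 of 8 was higher and none lower, against 1.74% and 0.569% of all genes. In non-classical monocytes 6 of 15 were higher and 1 was lower, against 3.37% and 2.60%. The part of these genes in the members' differences was not tested.

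Immediate early and heat shock genes, which also respond to cell handling, were lower in part. Of 29 such genes, 11 of 16 tested were lower in neutrophils, led by Fos (366 and 8.22 CPM), Dusp1 (751.5 and 33.5 CPM) and Junb (833 and 69.2 CPM), while the chaperone gene Hsp90ab1, named after its values were seen, was at 226 and 300.5 CPM. In monocytes 13 of 21 were lower, led by Hspa1b (63.4 and 1.86 CPM), Dusp1 (104.5 and 6.79 CPM) and Fos (177 and 20.3 CPM). In conventional DCs 3 of 22 were lower, Fosb (100.1 and 28.3 CPM), Dusp1 (114 and 42.5 CPM) and Fos (70.8 and 29.9 CPM). In red pulp macrophages 8 of 17 were lower, led by Dusp1 (139 and 12.1 CPM), Fos (67.2 and 7.26 CPM) and Klf2 (115 and 21.8 CPM) on 5, 3 and 9 SCD UMIs, and in pDCs 1 of 15, Junb (75.3 and 34.5 CPM). The list medians in these classes were -1.87, -1.28, -0.43, -0.96 and -0.42, beside -0.40, -0.12, -0.12, -0.05 and -0.05 over all genes tested, of which 21.1%, 6.59%, 5.17%, 6.96% and 0.406% were lower. Mcl1 is itself an early-response gene, and the part of handling in its difference was not tested. Within the Il1b-led cluster the summed level of this list was 10597 and 7276 CPM (0.687), with 2 of 20 tested genes higher and 2 lower and a median of -0.32, where 1.74% of all genes were higher and 0.569% lower. Within the Retnlg-led cluster the sum was 2877 and 2827 CPM.

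Of 18 p53 target genes, 4 of 6 tested were lower in neutrophils (median -1.40, beside -0.40 and 21.1% lower over all genes), led by Pmaip1, the anti-proliferative gene Btg2 (389 and 105.5 CPM) and the stress sensor Sesn2 (59.2 and 21.1 CPM). Within neutrophils 2 of 6 were lower in late cells (median -0.37 beside -0.45) and 0 of 3 in intermediate cells (-0.14 beside -0.07). The counts were 0 of 6 in the Il1b-led cluster (0.00048 beside -0.0068) and 0 of 5 in the Retnlg-led cluster (-0.04 beside -0.04). Over all genes 13.5%, 0.211%, 0.569% and 0.683% were lower there, in the same order. In monocytes 1 of 2 was lower (Btg2, 204 and 99.9 CPM), in conventional DCs 1 of 3 (Pmaip1) and in pDCs 0 of 4, with medians of -0.83, -0.58 and -0.31, beside -0.12, -0.12 and -0.05 and 6.59%, 5.17% and 0.406% lower over all genes. Red pulp macrophages had 1 of 6 lower (Btg2, 152 and 53.2 CPM) and 1 higher, the cell cycle inhibitor Cdkn1a at 6.39 and 72.6 CPM on 4 and 30 UMIs (median -0.53, beside -0.05 over all genes, of which 6.96% were lower and 3.73% higher). Pmaip1 stands in this list and in that of apoptosis genes, Birc3 in that of NF-kB targets as well, and Btg2 both here and among the immediate early genes, so the counts of these lists are not independent. Markers of neutrophils were higher in 3 other classes of the SCD library. Their sum over 18 markers was 10936 and 29825 CPM in monocytes, 9637 and 38942 CPM in conventional DCs and 5937 and 42683 CPM in pDCs, with none at 0, while red pulp macrophages were at 11834 and 11439 CPM with 1 marker at 0 in the wild-type library. Markers of conventional DCs went the other way. Their sum over 21 markers was 842 and 307.5 CPM in neutrophils, 2308 and 1195 CPM in monocytes, 18938 and 12758 CPM in pDCs and 8941 and 3266 CPM in red pulp macrophages, with 0, 1, 1 and 3 at 0 in the wild-type and 0, 0, 0 and 8 in the SCD library. In the same classes the Bcl2a1 sum was lower too, at ratios of 0.123, 0.0929, 0.155 and 0.765. The part of these markers in the levels of the members was not tested.

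The genes whose levels ran most like each member were taken over 18 combinations of class or stage and library with at least 50 cells, among 6506 genes, as a Pearson correlation of log2(CPM + 5). The points share libraries and depth, so these are descriptions. Mcl1 ran most like Myadm (0.97), Junb (0.96) and the inflammasome gene Nlrp3 (0.96). Bcl2l11 ran most like Vmp1 (0.88), Lfng (0.87) and Junb (0.85). Bcl2a1a ran most like Bcl2a1b (0.95), Amz1 (0.94) and Cd274 (0.93), Bcl2a1b like Batf3 (0.97), Cd274 (0.96) and Bcl2a1a, and Bcl2a1d like Slamf8 (0.96), Eno3 (0.95) and Batf3 (0.93). For Bcl2l1 the genes were Slc43a1 (0.94), the alpha globin gene Hba-a2 (0.93) and Nadk2 (0.93). For Bax they were Uqcc2 (0.97), the proteasome gene Psma3 (0.96) and the elongation factor Eef1a1 (0.96), and for Bcl2, at low levels in these combinations, Adcy7, Dnajc10 and Rap1a (each 0.88). Between members, the highest value outside the Bcl2a1 copies was that of Mcl1 and Bcl2l11 (0.79), a survival gene and its antagonist.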

How the data were processed

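Single-cell libraries (10x 3' v3.1 chemistry) of 1 wild-type and 1 SCD spleen were analysed. The authors deposited UMI counts for each gene in each cell, made with Cell Ranger 4.0.0 per the file headers, with GRCm38.p6 given in the submitters' processing notes. They are not normalized, and cells beyond the limits of the study's methods were still present.

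Cells with 500 to 5000 genes, under 15% mitochondrial and under 30% ribosomal UMIs were kept. Genes in at least 20 cells were scaled with scran 1.30.0 (R 4.3.3), and 2000 variable genes, 30 principal components and 15 neighbours entered Leiden clustering at resolution 1 (scikit-learn 1.9.0 and leidenalg 0.10.2 under Python 3.11.15, with igraph 0.11.9). The 8 members and 26 other apoptosis genes were kept out of the clustering. Clusters were named by the mean of the 8 best markers of a class, with a margin of 0.05, at least 3 detected markers and the leading 10 genes not against the name. How clusters were scored was decided after the data had been seen. Doublets (Scrublet in scanpy 1.11.5; 3.89% and 1.93% of cells) stayed in, except in 1 alternative.

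Sums of UMIs over the cells of a class in a library were given as CPM (numpy 2.4.6, pandas 2.3.3) with exact Poisson intervals. Ratios of SCD over wild-type had exact conditional binomial intervals and shares Clopper-Pearson intervals (scipy 1.17.1), all at 95% and for counting error only. As each group is 1 mouse, nothing was tested across samples. The calls were tested on simulated data, a check whose outcome is not given here and on which no result rests. Named genes were the members in every class, up to 3 highest and 3 lowest called genes per list and class, and the 3 genes most like each member. The members and lists were chosen with earlier results of these data known. Sequences were aligned with Biopython 1.88 and figures drawn with matplotlib 3.10.9. Values were recomputed with other cell filters, clusterings, scalings, doublets or shared barcodes removed, and other weights.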

Additional observations from a re-analysis of the deposited data

Results flagged for a closer look

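Cells with over 5000 detected genes that passed the mitochondrial and ribosomal limits, 295 in the wild-type and 1220 in the SCD library, lie outside the comparisons, and Bcl2 was higher there in the SCD library. Wild-type cells of this kind had Bcl2 at 11.1 CPM and SCD cells at 19.4 CPM, a ratio of 1.75 (1.51 to 2.03), from 207 and 1404 UMIs. Bax was at 173 and 190 CPM (1.10, 1.06 to 1.14) in these cells and Mcl1 at 169 and 153.5 CPM (0.907, 0.872 to 0.944). The Bcl2a1 copies were at 11.1, 28.9 and 24.8 CPM in the wild-type and 0.924, 1.70 and 1.54 CPM in the SCD cells for Bcl2a1a, Bcl2a1b and Bcl2a1d. The cell type makeup of these cells was not tested.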

How the results depend on the processing

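No paired analysis was possible because the labels give no replicate numbers and there is 1 sample per group. With at least 1000 genes per cell, 1 member (Mcl1) passed and was lower in neutrophils, in place of 2. With both libraries at the wild-type makeup of clusters or sub-types, chosen after seeing the data, 0 members were past 2-fold in neutrophils, monocytes and conventional DCs, in place of 2, 4 and 3. With the Dnase1l3-led cluster apart from the cDC2, also chosen after seeing the data, conventional DCs had 0 members past 2-fold at either makeup and 3 with the cluster left out. Other weights gave other calls. At the SCD makeup the Bcl2a1 ratios were 0.248 to 0.315 in monocytes and 0.514 to 0.562 in conventional DCs and the neutrophil Mcl1 and Bcl2l11 ratios 0.465 and 0.423, and at the wild-type stage makeup the latter were 0.379 and 0.293. Bcl2 in pDCs came to 1 member higher without the upper limit on genes, without the mitochondrial and ribosomal filter, with total count normalization and at resolution 2, where 68, 147, 187 and 39 of the 187 cells of the Bcl2-led cluster then counted as pDCs, at ratios of 5.60, 4.47, 6.05 and 5.08. At 1.5-fold, red pulp macrophages had 1 member higher (Bax) and 1 lower (Mcl1). The share of all genes called was not computed under these alternatives, so the recounts of members have no background beside them. Of the recounts of members called, 160 stayed within 1.5 times the main count and 12 did not. Most main counts were 0, and a 0 that stayed 0 is among the 160, so this tally says little about the members called. Member ratios stayed within the counting interval of the main ratio in 184 cases and moved beyond it in 66, shares of cells did so in 1 and 11, and list counts stayed within 1.5 times in 15 and moved in 25. Over 9 other filters, clusterings and scalings, the neutrophil Mcl1 ratio was 0.189 to 0.254, the late Mcl1 ratio 0.337 to 0.487 and the conventional DC Bcl2a1b ratio 0.377 to 0.422. The conventional DC Bcl2a1d ratio was 0.470 to 0.518 and the monocyte Mcl1 ratio 0.486 to 0.563, both on either side of 2-fold. No recomputed member ratio past 2-fold and the minimum level turned direction, but Bcl2 in monocytes, under that minimum, went from 0.267 to 1.08 at the wild-type makeup and that of Bax in red pulp macrophages ranged from 0.858 to 1.59. Depth limits classes such as B cells, red pulp macrophages, erythroid cells and early neutrophils, where several members rest on under 20 UMIs.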
